A study of Mus musculus with 4 samples.

Results

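Intraepithelial lymphocytes (IEL) of the mouse colon were set against IEL of the mouse small intestine, across all genes of 1 microarray per site. Both arrays belong to a series of 4 whole-transcript Affymetrix arrays, 1 array per group, so the comparison uses 2 of 4 samples. The colon array is the one titled WT_IEL and the small intestinal array the one titled SI_IEL. Each gene was represented by a probe set that lists that gene alone, chosen as the brightest on average across the 4 arrays, and 22180 genes were obtained.

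Both groups were unmanipulated C57Bl/6 mice of 8 to 10 weeks. The labels describe a pool of 10 mice, 5 male and 5 female, and leave unsettled whether 10 mice served each array or the whole series. The epithelial layer was shaken off in a buffer with EDTA, and T cells were then enriched by magnetic negative selection with an added antibody to EpCAM, an adhesion protein of epithelial cells. The other arrays held colon IEL of mice given vancomycin, ampicillin, neomycin and metronidazole for 7 days and then recolonized for 7 days, and a sample labelled as T cells of the colon lamina propria, titled LP. Their values stand beside those of the compared pair where they help to read it. With 1 pooled array per site there is no replicate and no test, so every difference below describes these arrays and carries no error.

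IEL are T cells lodged between the epithelial cells of the gut. Natural IEL acquire their program in the thymus, often carry the CD8 alpha homodimer and a gamma delta receptor, and hold preformed cytotoxic granules. Induced IEL derive from conventional CD4 or CD8 T cells that enter the epithelium after meeting antigen. Residence in the epithelium is linked to the integrin of Itgae (CD103), which binds E-cadherin, and entry into the small intestine to the chemokine receptor Ccr9. Lef1 and Ccr7 mark naive and recirculating T cells, which pass through lymph nodes.

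Levels are log2 values and a difference is colon minus small intestine, so 1 is a 2-fold difference. A gene was counted when its higher value of the pair reached the median of all genes on its array, a level floor that 12551 genes passed. Of these, 751 were at least 2-fold higher on the colon array (5.98%) and 3059 at least 2-fold lower (24.4%), and their median difference was -0.30. Every list median below is to be read against this shift, and every count of higher or lower genes against these shares. The SD of gene levels was 1.23 on the colon array and 1.67 on the small intestinal array. The difference had an SD of 0.56 over 56 ribosomal protein genes, and the median gap between both probe sets of a gene was 0.67 over 767 genes. Sex-linked genes differed too: Xist was at 4.08 (colon) and 5.70 (small intestine), and the Y-linked Eif2s3y at 2.64 and 4.67.

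The 4 genes taken as markers of the contrast differed as follows. Cd4, which helper T cells use to bind MHC class II, was at 8.09 on the colon array and 5.91 on the small intestinal array, 4.55-fold higher in colon. Lef1, a transcription factor of naive T cells, was at 7.14 and 3.85, 9.78-fold higher. Gzma, the granule protease granzyme A, was at 4.98 and 10.38, 42.0-fold lower. Itgae was at 4.82 and 7.90, 8.43-fold lower. On the recolonized colon array these 4 genes stood at 7.70, 7.55, 7.73 and 5.47 in the same order, so its Gzma level lay between those of the compared arrays. On the LP array the values were 1.89, 2.37, 2.36 and 2.33, near that array's median gene level of 2.18. In such bulk samples, fewer cells of a type and less RNA per cell cannot be told apart.

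Promoter sequences are shown for the granzymes with the largest differences, Gzma and Gzmb, and for Lef1, which had the largest difference in the other direction among the lymphocyte genes listed. Each runs 5′ to 3′ on the gene's own strand, from 250 bases before to 50 bases after a RefSeq start site on GRCm38.p6. Gzma lies at chr13:113100932-113101231 on the minus strand, Gzmb at chr14:56262285-56262584 on the minus strand and the first of 4 Lef1 start sites at chr3:131110047-131110346 on the plus strand. Capitals mark matches, on either strand, to the RUNX core TGTGGT, the TCF/LEF core CTTTGA, the T-box motif GGTGTGA or the ETS core CGGAAG.
Gzma: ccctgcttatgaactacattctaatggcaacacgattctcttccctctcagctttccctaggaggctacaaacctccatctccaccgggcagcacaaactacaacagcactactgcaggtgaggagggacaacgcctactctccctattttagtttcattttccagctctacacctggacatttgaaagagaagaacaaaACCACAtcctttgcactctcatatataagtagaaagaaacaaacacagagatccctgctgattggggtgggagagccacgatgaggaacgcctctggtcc
Gzmb: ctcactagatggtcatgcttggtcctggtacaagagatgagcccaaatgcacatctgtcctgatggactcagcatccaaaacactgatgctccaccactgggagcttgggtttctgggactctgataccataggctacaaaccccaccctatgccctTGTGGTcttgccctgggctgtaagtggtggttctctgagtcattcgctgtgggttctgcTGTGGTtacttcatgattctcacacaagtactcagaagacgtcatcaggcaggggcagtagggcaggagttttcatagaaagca
Lef1: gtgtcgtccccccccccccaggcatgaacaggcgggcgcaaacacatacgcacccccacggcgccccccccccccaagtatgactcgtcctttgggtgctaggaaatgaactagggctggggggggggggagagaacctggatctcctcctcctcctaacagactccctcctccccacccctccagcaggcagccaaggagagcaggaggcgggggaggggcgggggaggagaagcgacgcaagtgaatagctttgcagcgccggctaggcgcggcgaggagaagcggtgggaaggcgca
The Gzma window held 1 RUNX core match, starting at position -50 from the start site, and the Gzmb window held 2, at -93 and -34. RUNX core matches occurred in 16.9% of 27025 promoters of that length, TCF/LEF core matches in 16.2%, ETS core matches in 17.2% and T-box motifs in 3.96%. The first 3 Lef1 windows held no match to the 4 motifs, and the fourth, at chr3:131156044-131156343, held 2 TCF/LEF core matches. A match describes these letters and shows no binding.

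Lymphocyte genes were first separated from transcripts that other cells could bring. The LP array served as a reference for colonic epithelium, because its content went against its label: all 18 pan-epithelial markers measured lay at or above its 75th percentile of gene levels (3.996), and 0 of 3 CD3 chains and 0 of 20 proximal T cell receptor signalling genes did. Of the 3059 genes lower on the colon IEL array, 2418 (79.0%) were at or above that percentile, against 104 of the 751 higher genes (13.8%). In 4 equal bins of the level on that array, taken over genes above the floor, the share of lower genes was 7.90%, 8.67%, 24.6% and 56.3% from the dimmest to the brightest, and the share of higher genes 13.5%, 6.47%, 2.30% and 1.66%. Thus most genes that were dimmer in colon IEL were bright on an array rich in epithelial transcripts, as were 5456 of all 12551 genes above the floor. Brightness there does not single out epithelial genes: all 11 reference genes measured lay at or above that percentile too.

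**Figure D1:**
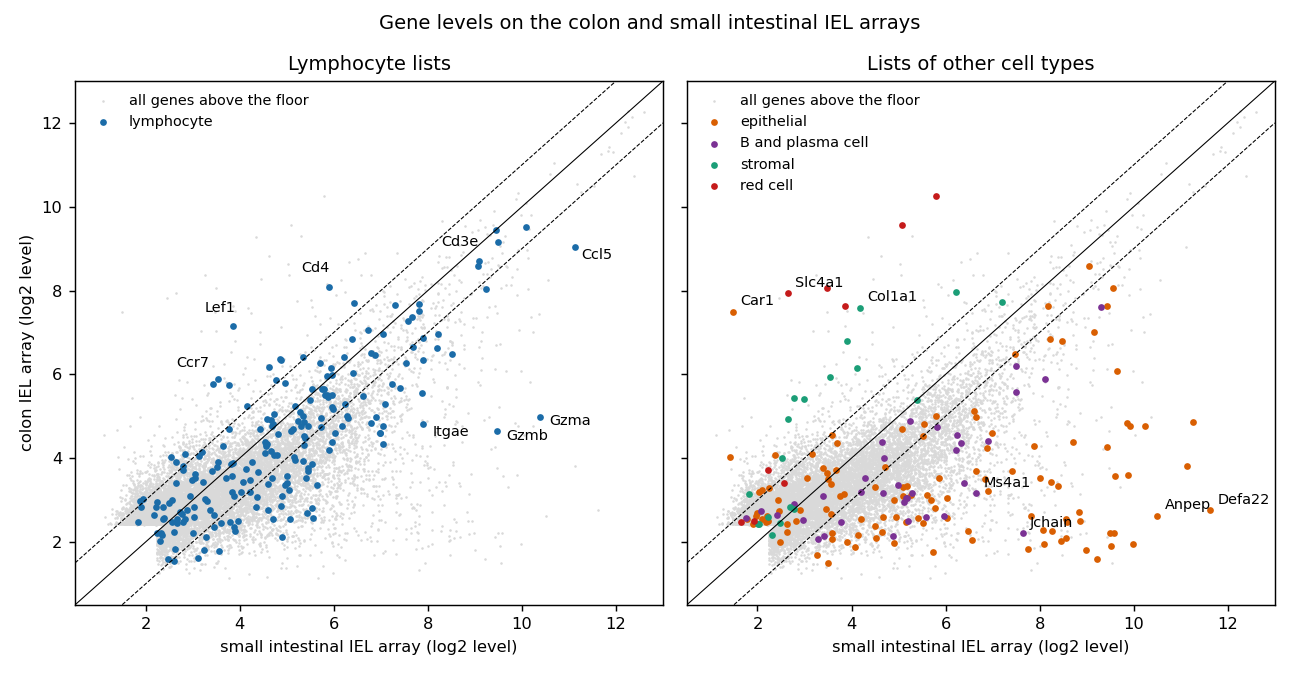
Log2 level of each gene above the level floor on the small intestinal IEL array (x axis) and the colon IEL array (y axis), with members of the lymphocyte lists coloured on the left and members of the lists of other cell types on the right. The solid line marks equal levels and the dashed lines a 2-fold difference: Lef1, Ccr7 and Cd4 lie above them, Gzma, Gzmb and Itgae below, and many epithelial genes lie at the foot of the colon axis.

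The lymphocyte lists held 248 measured genes, of which 204 passed the floor; 18 exceeded small intestine by 2-fold or more (8.82%) and 67 were lower by as much (32.8%). The median difference of the 204 was -0.37. Among those below the 75th percentile of the epithelium-rich array, a restriction chosen after seeing the data, 170 passed the floor, with 17 higher (10.0%) and 56 lower (32.9%). Over all 7095 genes restricted in that way, 9.12% were higher and 9.03% lower. The share of lower lymphocyte genes was almost the same with and without genes bright on that array, whereas the share over all genes dropped. That array was poor in T cell transcripts, and the restriction took out only 34 of the 204 lymphocyte genes, against 5456 of all 12551 genes. A steady share therefore says little about transcripts from other cells. The restriction also left B cell and some small intestinal epithelial genes in place. Prdm1, Cdh1 and Irf4, 3 of the 67 lower genes, also stood in a list of epithelial or plasma cell genes. That count covers overlaps between the lists used here only, and does not make the other lower genes specific to lymphocytes.

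A further 4 scalings were applied: quantile normalization, centring all differences on -0.30 (the median above the floor), a lowess correction for level, and centring on the CD3 chains, which expresses each gene relative to T cell receptor complex transcripts. Of the 18 higher lymphocyte genes, 16 stayed at least 2-fold higher under all 4, and Pdcd1 and Dapl1 did not. Both centrings raised every difference, and each of the 16 was at its lowest as deposited. Their staying past 2-fold was thus close to fixed by these scalings. The shares kept in each direction cannot be compared. Of the 67 lower genes, 27 stayed at least 2-fold lower under all 4, and 23 of these lay below the 75th percentile of the epithelium-rich array. The 4 above it were Ifngr2, Cdh1, Fgl2 and Ccl5. Every lower lymphocyte gene that is named in the text and not shown in the plot of levels by gene came within 2-fold under at least 1 of the scalings. The plot of levels by gene shows both sets on all 4 arrays.

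**Figure D2:**
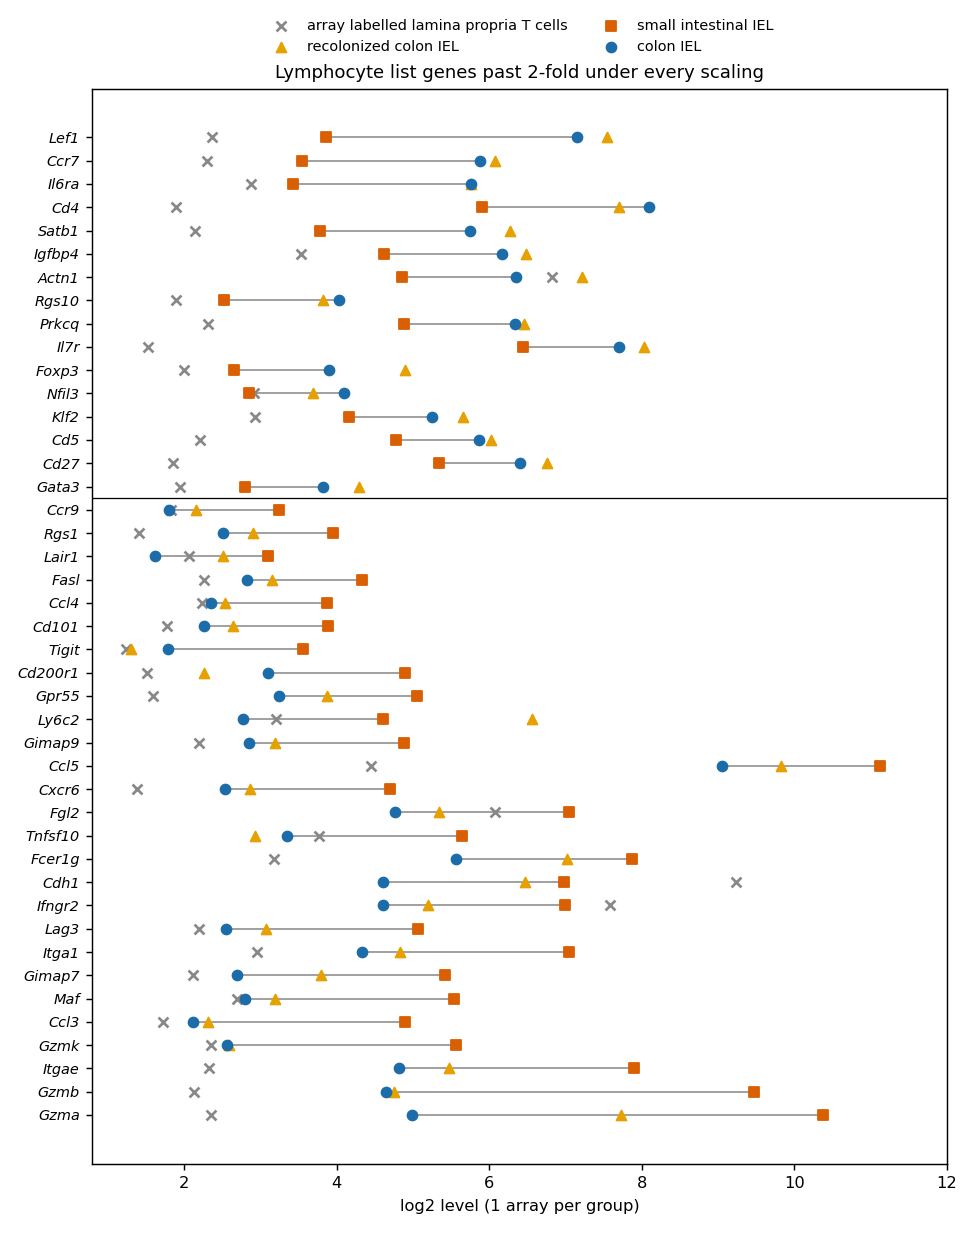
Log2 level on each of the 4 arrays (x axis) of the 43 lymphocyte list genes that were at least 2-fold apart between colon IEL (blue circles) and small intestinal IEL (orange squares) as deposited and under all 4 scalings, ordered by difference, 1 array per group and no error. Genes above the black line were higher in colon IEL, genes below it lower; Ly6c2 and Fcer1g are among those whose recolonized colon value (triangles) lay away from the colon IEL value.

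Genes of naive and recirculating T cells were higher on the colon array. Of 17 detected members (above the floor), 10 reached 2-fold in favour of colon and 0 in favour of small intestine. Among all genes above the floor these shares were 5.98% and 24.4%. The list median of 1.12 stood against -0.30 for all of them. It stayed positive under every scaling, up to 2.10 under quantile normalization, and with the recolonized array. All 4 scalings raised this median, so they could hardly have turned it negative. Ccr7, which guides T cells into lymph nodes, was at 5.88 in colon against 3.55 in small intestine, and Il6ra, the interleukin-6 receptor chain, at 5.76 against 3.43. Satb1, a chromatin organizer of T cells, was at 5.74 against 3.78. Igfbp4 and Actn1 were higher by 1.55 and 1.51, though Actn1, an actin crosslinker, was also bright on the epithelium-rich array, at 6.82. Il7r, the survival receptor of resting T cells, was at 7.71 against 6.44. Klf2, which drives expression of the egress receptor S1pr1, was higher by 1.09, and S1pr1 itself by 0.84. Cxcr4 differed by 0.02 and Ets1 by 0.21. Members that were lower in colon as deposited were Klf3 (-0.77), Foxo1 (-0.40), Foxp1 (-0.37) and Bach2 (-0.28), none by 2-fold. Tcf7 was not analysed here.

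Among 13 co-receptor and helper genes passing the floor, 3 were higher by 2-fold and 1 lower, against 5.98% and 24.4% of all genes. The list median of 0.49 was positive under every scaling. All 4 scalings raised that median as well. Cd4, Cd27 (6.40 against 5.34) and Cd5 (5.86 against 4.77) were the higher ones. Cd27 is a costimulatory receptor lost by many effector cells, and Cd5 a brake on receptor signalling that conventional T cells carry. Cd8a was lower, at 6.48 against 8.51, while its partner chain Cd8b1 was at 6.28 against 5.71. The 2 chains thus differed in opposite directions. Cd8a stayed past 2-fold except under quantile normalization (-0.90). The Cd8b1 difference was 0.57 as deposited, 0.87 and 0.89 after both centrings, and past 2-fold under quantile normalization (1.74), after lowess (1.59) and with the recolonized array (1.81). Cd28 and Cd40lg differed by 0.91 and 0.93, and Runx3 and Zbtb7b, the lineage factors of CD8 and CD4 T cells, by 0.25 and -0.38. Ctla4 differed by -0.04.

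Of the 3 CD3 chains measured, Cd3e was at 9.17 in colon and 9.49 in small intestine, and Cd3d at 5.64 and 5.54. Cd3g was 2.33-fold lower as deposited, at 8.03 and 9.25, and within 2-fold under all 4 scalings. Of 20 proximal signalling genes, 18 were within 2-fold; Prkcq, a kinase downstream of the receptor, was higher by 1.45 and Vav1 lower by 1.05. Their median of -0.27 lay near that of all genes above the floor and turned positive under all 4 scalings, with 0.79 under quantile normalization and 0.05 relative to the CD3 chains. Ubash3a and Skap1 differed by -0.10 and 0.07. Of the 4 Trav segments and 1 Trbv segment above the floor, 0 differed by 2-fold; Trav9d-3 was at 9.33 on both arrays. Trdc was not analysed here, and 0 of 2 Trgv segments passed the floor, so the gamma delta share could not be read from the receptor genes.

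Cytotoxic granule genes were lower on the colon array. Of 14 members passing the floor, 10 were lower by 2-fold or more and 0 higher. Over all genes above the floor 24.4% were lower, and over the lymphocyte lists 32.8%. The granule median of -1.59 stayed negative under every scaling, at its smallest -0.60 under quantile normalization. Gzmb, granzyme B, was at 4.64 against 9.46, and Gzmk at 2.56 against 5.56. Fasl, a death ligand, was at 2.83 against 4.34, and Tnfsf10, the ligand TRAIL, at 3.36 against 5.64. These 4 genes and Gzma were the 5 members that stayed past 2-fold under all scalings. Nkg7 and Ctsw, a granule membrane protein and a cathepsin of cytotoxic cells, were lower by 1.57 and 1.25 as deposited, and by 0.44 and 0.17 under the scaling that reduced them most. Perforin (Prf1) was at 4.17 against 4.66, serglycin (Srgn), the granule matrix proteoglycan, at 7.27 against 7.58, and Gzmm at 2.16 against 2.35. Gzmc, Gzmd and Ifng were below the floor. The granule genes thus did not differ by a common amount: granzymes A, B and K were far apart between the arrays, and perforin and serglycin were within 2-fold. Lamp1 and Ctsc, lysosomal genes of many cells, were lower too but were bright on the epithelium-rich array, at 8.17 and 6.09.

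On the recolonized colon array Gzmb was at 4.76 and Gzmk at 2.60, close to the colon IEL values, whereas Gzma was at 7.73 against 4.98. The difference from small intestine was -4.71 for Gzmb, -2.97 for Gzmk and -2.64 for Gzma with that array.

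Of the chemokines made by effector T cells, Ccl3, Ccl4 and Ccl5 were lower in colon. Ccl3 was at 2.12 in colon and 4.90 in small intestine, Ccl4 at 2.35 and 3.87, and Ccl5 at 9.05 and 11.12. All 3 stayed at least 2-fold lower under all 4 scalings. Xcl1, a chemokine that attracts cross-presenting dendritic cells, was at 7.05 against 6.73 and so within 2-fold. Fgl2 was lower by 2.28, and was at 6.08 on the epithelium-rich array. Of 24 cytokine and chemokine genes measured, 11 passed the floor, with 0 higher and 4 lower. Lower genes made up 24.4% of all genes above the floor and 32.8% of the lymphocyte lists. Il17a, Il22, Il4, Il5, Il10 and Il13 were all below the floor on both arrays. The list median of -0.27 changed sign under each scaling.

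Integrins of tissue residence were unequal between the sites. Itgae and Itga1, the latter the alpha chain of a collagen-binding integrin (CD49a), were both lower in colon, Itga1 at 4.33 against 7.04. Itgb7, the beta chain shared by the E-cadherin and gut homing integrins, was lower by 1.58, and by 0.41 after the scaling that reduced it most. On the recolonized array Itgb7 was at 5.99, against 5.95 in small intestine. Itga4 (6.84 against 6.38), Itgb2 (6.97 against 7.04), Itgal (5.01 against 5.35) and Itgb1 (4.28 against 4.56) were within 2-fold. Cd69, a receptor that blocks tissue exit, was at 4.94 against 4.59. Rgs1, a G protein regulator of resident T cells, was lower by 1.45. Of 17 residency genes above the floor, 8 were lower and 0 higher, against 24.4% lower over all genes and 32.8% over the lymphocyte lists. Of the 8, 1 was Cdh1, E-cadherin itself, an epithelial gene. Prdm1 also stood in the plasma cell list, and Bhlhe40 was bright on the epithelium-rich array, at 7.19. The list median of -0.34 lay near that of all genes above the floor.

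Homing receptors gave 4 of 11 genes lower and 0 higher, with a median of -0.35, near that of all genes above the floor. The share of lower genes was 32.8% over the lymphocyte lists and 24.4% over all genes. Ccr9 was at 1.81 in colon, below that array's median gene level of 2.41, and at 3.24 in small intestine. Cxcr6 was at 2.54 against 4.70, Gpr55, a lysolipid receptor, at 3.24 against 5.06 and Gpr18 at 5.48 against 6.63. The Gpr18 difference of -1.15 became 0.10 under quantile normalization. Cxcr3 (3.03 against 3.26) and Gpr183 (3.86 against 3.82) were alike on the arrays. Gpr15, a receptor for entry into the colon, was at 2.13 against 1.76 and below the floor, as were Ccr2, Ccr4, Ccr8 and Ccr10.

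Inhibitory receptors were mostly lower in colon, with 9 of 15 lower by 2-fold or more, 1 higher and a median of -1.36, negative under every scaling. By comparison, 32.8% of lymphocyte list genes and 24.4% of all genes above the floor were lower. Lag3, which binds MHC class II, was at 2.55 against 5.07, Tigit at 1.79 against 3.56, Cd200r1 at 3.10 against 4.90 and Cd101 at 2.26 against 3.89. Btla (4.20 against 5.89) and Lilrb4a (3.86 against 5.53) are also known from B cells and myeloid cells. Pdcd1 (PD-1) was the exception, at 3.03 in colon and 1.95 in small intestine; its difference of 1.08 fell below 2-fold, to 0.88, after the lowess correction. Tox, Ctla4 and Cd160 differed by 0.02, -0.04 and -0.21.

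Natural killer type receptors gave 7 of 14 genes lower and 0 higher, against 32.8% lower over the lymphocyte lists and 24.4% over all genes. Their median of -0.92 became 0.07 with the recolonized array. Klrd1 (CD94) was at 6.35 against 7.91, Cd244a at 4.84 against 6.80, Slamf7 at 4.76 against 6.18 and Cd96 at 6.87 against 7.90. None of these 4 stayed past 2-fold under all scalings. Tyrobp and Fcer1g, the signalling adaptors of such receptors, were lower by 1.42 and 2.31, and Fcer1g was at 5.56 in colon, 7.02 on the recolonized array and 7.87 in small intestine. Klrk1 (NKG2D), Klrg1, Klrc1 and Klrc2 were below the floor on both arrays. Among natural IEL genes, 6 of 13 were lower and 0 higher, to be read against the same shares. The natural IEL median of -0.56 became 0.15 under quantile normalization. Cd7, Kit, Il2rb, Cd160, Spry2, Xcl1 and Zbtb16 were within 2-fold.

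The Gimap genes, a cluster of GTPases that sustain lymphocyte survival, were lower in colon in 7 of 8 cases, against 32.8% of lymphocyte list genes. Their median of -1.34 was negative under every scaling. Gimap7 was at 2.70 against 5.43 and Gimap9 at 2.85 against 4.88, and these 2 stayed past 2-fold under every scaling. The rest were lower by 0.93 (Gimap6) to 1.68 (Gimap8). Gimap4 was lower by 1.04 as deposited and higher by 0.13 under quantile normalization. The 8 genes also serve B cells, whose markers were lower as well; their part in these differences was not tested.

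**Figure D3:**
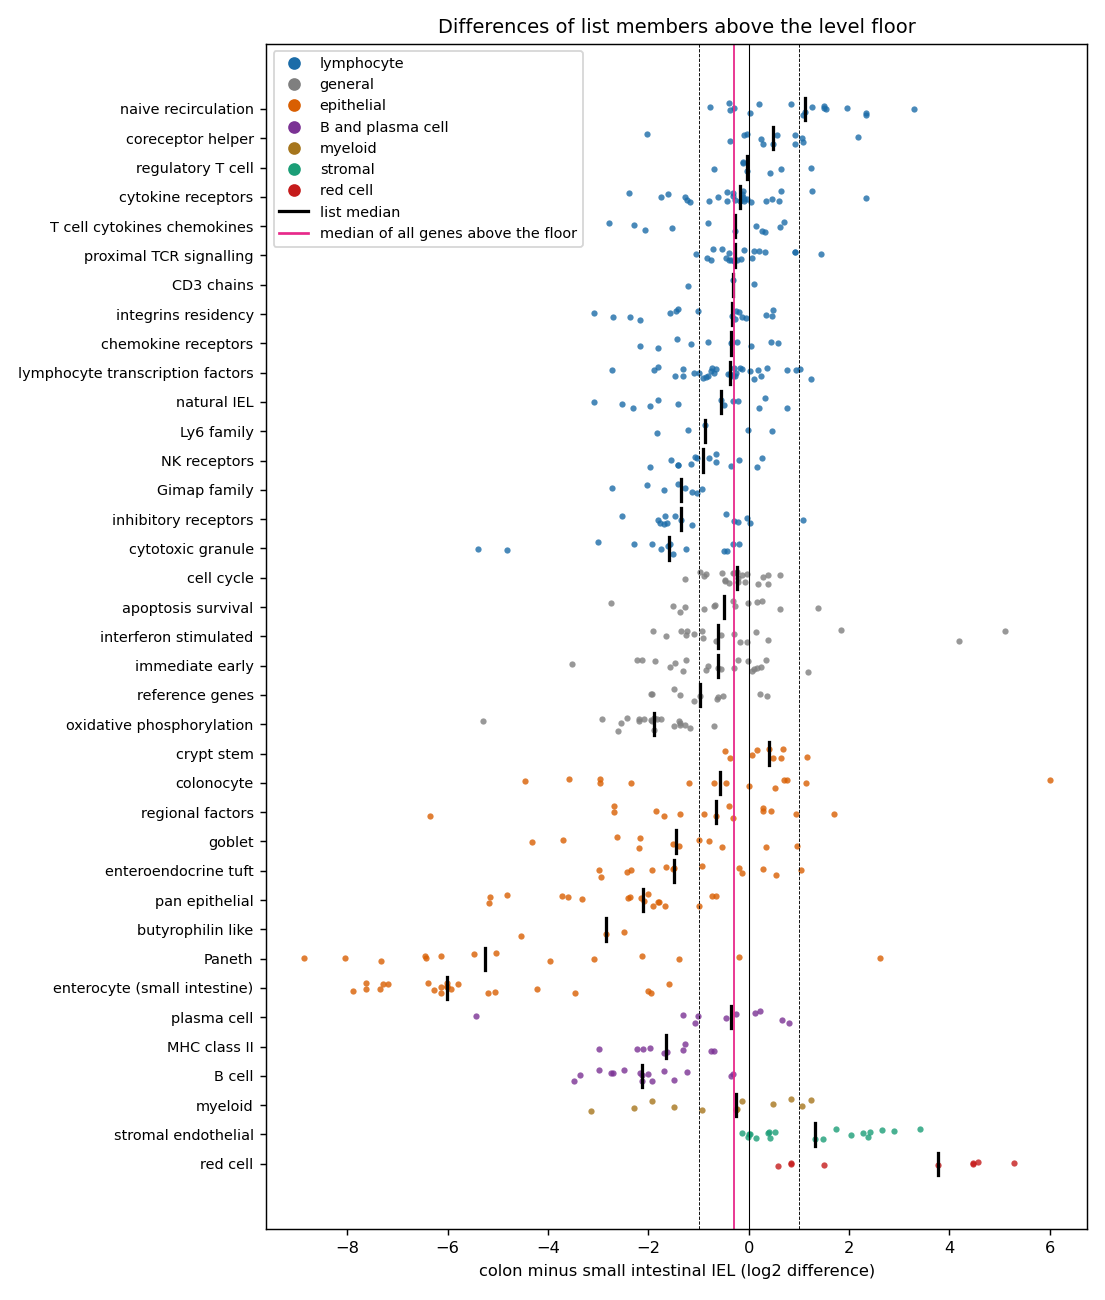
Colon minus small intestinal log2 difference (x axis) of every list member above the level floor, 1 point per gene, in 37 gene lists coloured by cell class; black bars are list medians, the pink line is the median of all genes above the floor (-0.30) and dashed lines mark 2-fold. As deposited, naive and recirculation genes (median 1.12), stromal (1.33) and red cell genes (3.78) lie to the right, and enterocyte (-6.02), Paneth (-5.25), B cell (-2.13) and cytotoxic granule genes (-1.59) to the left; the red cell median was -0.32 with the recolonized array.

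Transcription factors of lymphocytes were mostly within 2-fold, with 2 of 33 higher and 7 lower, near the shares of all genes above the floor, and their median of -0.38 changed sign under quantile normalization and the lowess correction. Gata3, the factor of type 2 helper and regulatory T cells, was at 3.82 against 2.80, and Nfil3 at 4.09 against 2.85. The other Gata3 probe set differed by 0.54. Maf, a factor of interleukin-producing and regulatory T cells, was at 2.80 against 5.53, and its other probe set differed by -0.81. Ikzf3 was at 5.28 against 7.10 and Id2, which holds the effector state, at 5.76 against 7.24; neither stayed past 2-fold under all scalings. Irf8, at 3.52 against 5.40, and Irf4 and Bcl6, lower by 1.30 and 1.08, are also factors of B cells. The other Irf8 probe set differed by -0.16. Tbx21 (T-bet) was at 4.07 against 4.80, Runx1 at 4.82 against 4.71, Rora at 2.57 against 2.39 and Ahr at 4.33 against 4.58. Eomes was below the floor.

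Of 7 regulatory T cell genes above the floor, Foxp3, the defining factor, was at least 2-fold higher, at 3.90 in colon, 2.66 in small intestine and 4.90 on the recolonized array. Tnfrsf18 (GITR) and Izumo1r (folate receptor 4) differed by 0.64 and 0.43, Il2ra by -0.11, and Ikzf2 (Helios) by -0.69. The list median of -0.04 turned positive under each scaling.

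Cytokine receptors gave 2 of 27 genes higher, Il7r and Il6ra, and 6 lower, shares near the 5.98% and 24.4% of all genes above the floor. Tnfrsf1b, a tumour necrosis factor receptor, was at 3.70 against 5.44, the costimulator Tnfrsf9 (4-1BB) at 3.40 against 5.01 and Il12rb2 at 3.37 against 4.60. Tnfrsf1b and Tnfrsf9 were within 2-fold under quantile normalization and after lowess, and Il12rb2 under all 4 scalings. Ifngr2 and Il10rb, lower by 2.38 and 1.27, were bright on the epithelium-rich array, at 7.59 and 6.73. Il2rb, the receptor chain through which interleukin-15 maintains IEL, was at 7.36 against 7.67, and Tgfbr2, Il15ra and Il21r differed by 0.05, -0.03 and -0.10. The list median of -0.18 turned positive under all 4 scalings. In the Ly6 family, Ly6c2 was at 2.77 in colon, 4.60 in small intestine and 6.56 on the recolonized array, and Ly6e at 9.43 and 9.46 on the compared pair.

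**Figure D4:**
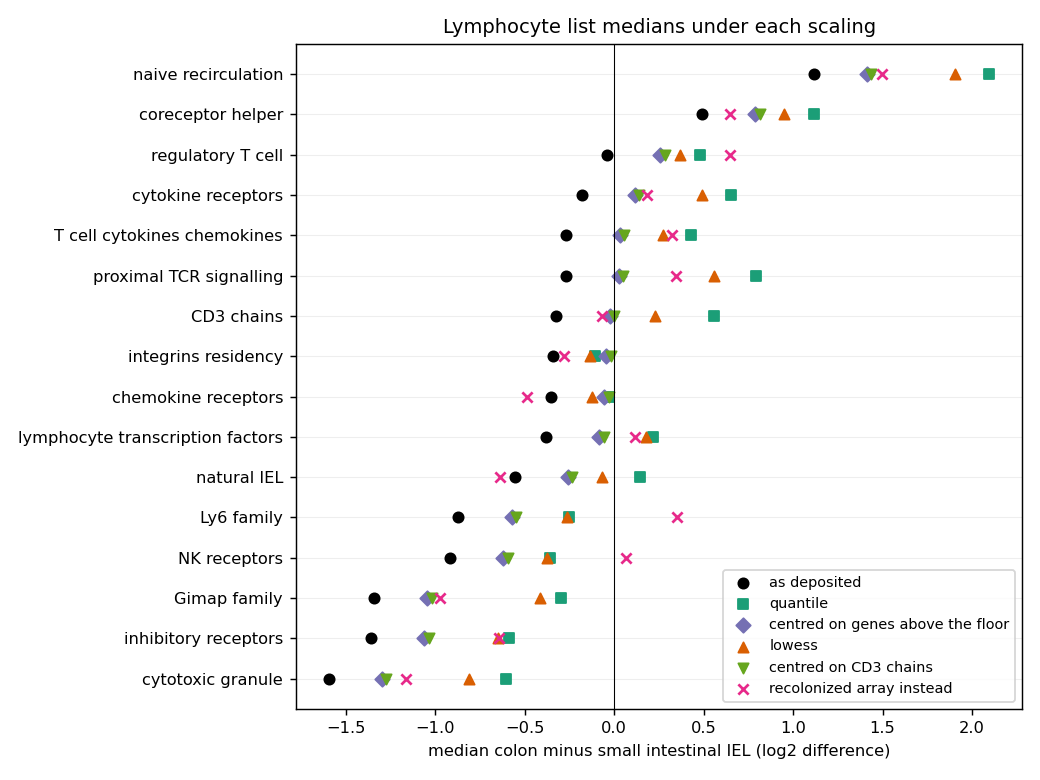
Median colon minus small intestinal log2 difference (x axis) of the 16 lymphocyte lists as deposited (black circles), under 4 scalings, and with the recolonized array standing in for colon IEL (crosses). Naive and co-receptor lists stay right of 0 and cytotoxic, inhibitory receptor and Gimap lists left of 0 in all 6 settings, while lists near 0, such as proximal TCR signalling, change side.

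Some genes used by all cells were also unequal. Oxidative phosphorylation genes were lower in colon in 20 of 21 cases, with a median of -1.90 that was -0.86 under quantile normalization and -1.05 after lowess, and 19 of the 21 lay at or above the 75th percentile of the epithelium-rich array. Of 11 reference genes, 5 were lower and 0 higher, with Gapdh at 8.77 against 10.13, Actb at 7.93 against 8.44 and B2m at 10.55 against 11.18. All 11 were bright on the epithelium-rich array, and 5 of 11 is near the 44.3% lower among all genes that bright there. Immediate early genes, which respond within minutes to stimulation or tissue handling, gave 8 of 21 lower and 1 higher. Of the 21, 14 lay at or above the 75th percentile of the epithelium-rich array, where 44.3% of all genes above the floor were lower. Zfp36 was at 3.50 against 7.02 and Btg2 at 3.57 against 5.79, and both were bright on that array, at 7.79 and 7.20. With the recolonized array Btg2 differed by -0.12. Dusp1 was at 4.90 against 3.71, while Ier2 and Egr1 differed by -0.01 and 0.07. Cell cycle genes were alike, with 20 of 21 within 2-fold, Mki67 at 4.18 against 4.41 and Pcna lower by 1.26. Among survival genes, Bak1 was lower by 2.74, Bcl2 higher by 0.62 and Bcl2l1 higher by 1.39; the last was at 2.99 on the recolonized array, against 4.76 in colon and 3.37 in small intestine. Interferon-stimulated genes split: Rsad2, Isg20 and Isg15 were higher by 5.11, 4.19 and 1.85, and Stat2, Cmpk2, Igtp, Oasl1, Ifit1 and Oasl2 lower by 1.10 to 1.91. The 3 higher genes were at 3.41, 4.40 and 2.10 on the recolonized array, near or below the small intestinal values of 3.25, 4.63 and 2.82.

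Epithelial transcripts made up the largest negative differences. All 22 small intestinal enterocyte genes were lower in colon, with a median of -6.02, led by Anpep, Mgam and Sis, the brush border peptidase and disaccharidases, with -7.88, -7.63 and -7.63. On the small intestinal array 20 of the 22 lay at or above the 75th percentile of levels, and 4 did on the colon array. Of 14 Paneth cell genes, 12 were lower; Lyz1, the Paneth lysozyme, was at 4.83 against 9.86, and Mptx1, a pentraxin, was higher, at 4.03 against 1.41. Btnl1, a butyrophilin-like protein of enterocytes that selects gamma delta IEL, was at 2.04 against 6.57. Hnf4g, an enterocyte transcription factor, was at 2.50 against 8.85, and Gata4, a factor of the proximal gut, at 2.22 against 3.59. Pan-epithelial genes were lower in 15 of 18 cases, with Epcam at 4.28 against 7.88 and Vil1, the villus actin bundler, at 4.25 against 9.43. Some genes of the distal gut were higher in colon: the carbonic anhydrase Car1 was at 7.49 against 1.49, Aqp8 at 3.23 against 2.10 and the positional factor Hoxb9 at 4.07 against 2.37. With the recolonized array Hoxb9 differed by 0.88. Hoxa13, Hoxb13 and Hoxd12 differed by 0.29, 0.29 and 0.45, and Hoxd13 was below the floor. Colonocyte genes as a whole were not higher: 6 of 14 were lower, among them Slc26a3 and Guca2a (-2.96 each), and 2 higher. Their median of -0.58 became 0.023 under quantile normalization and 0.59 with the recolonized array.

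**Figure D5:**
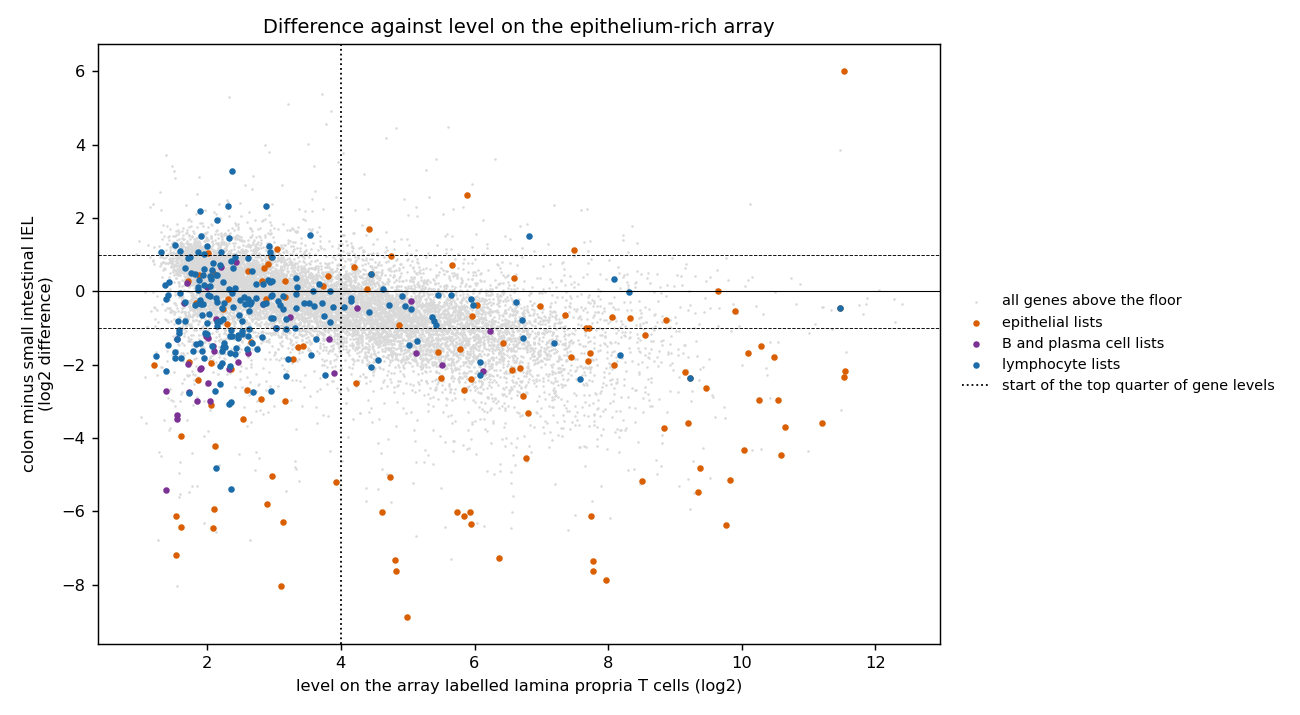
Colon minus small intestinal log2 difference (y axis) against the log2 level on the LP array, which was rich in colonic epithelial transcripts (x axis), for each gene above the level floor. The dotted line marks the 75th percentile of gene levels on that array (3.996); to its right 44.3% of genes were lower by 2-fold or more in colon IEL against 9.03% to its left, and most lymphocyte genes (blue) lie left of it, as do some small intestinal epithelial genes (orange).

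That array is colonic and marked only some genes of small intestinal epithelium: of the 22 enterocyte genes, 12 lay at or above its 75th percentile and 6 under its median. Of 2197 genes under its median level, 15.8% were higher and 8.78% lower in colon. Genes in a list of another cell type were then left out. So were antigen receptor segments, unnamed genes, small RNAs, chemoreceptors and Y-linked genes. Among the rest, the 12 largest negative differences were led by Reg1, Defa39, Mme, Akp3 and Enpp3 (-8.04 to -6.32), and Gzmb (-4.82) was the eleventh. Of the segments left out, Igkv9-120 differed by -4.95, more than Gzmb. Mme and Enpp3 encode surface peptidase and nucleotidase enzymes, Akp3 an intestinal alkaline phosphatase and Defa39 a Paneth cell defensin. The 12 largest positive differences held Cd4 and Satb1, and were led by Retnla (5.43 against 1.71), Tdpoz2, Klk1b11, Apol11b and Hbq1a, an alpha-like globin. For 10 of those 12, all but Cd4 and Satb1, the recolonized colon array did not reach 2-fold over small intestine, where 4.76% of genes above the floor were higher and 17.9% lower with that array: Retnla was at 1.72 and Hbq1a at 1.63 there.

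B cell transcripts were lower in colon. Of 16 markers, 14 were lower by 2-fold or more and 0 higher, with a median of -2.13. Ms4a1 (CD20) was at 3.17 against 6.65, Cr2, the complement receptor of mature B cells, at 2.61 against 5.97, Cd22 at 3.41 against 6.40 and Cd79a, a chain of the B cell receptor, at 5.57 against 7.49. At or above the 75th percentile of levels lay 6 of the 16 on the colon array, 14 on the small intestinal array and 2 on the recolonized array. Jchain, the joining chain of secreted antibody, was at 2.21 against 7.64, and all 11 Igkv segments above the floor were lower, with a median of -3.41. Of 10 plasma cell genes passing the floor 4 were lower and 0 higher: Jchain and the factors Irf4, Xbp1 and Prdm1 (-1.30, -1.07 and -1.01), of which Xbp1 was at 0.13 under quantile normalization. Sdc1, Mzb1 and Derl3 differed by -0.44, 0.13 and 0.66. MHC class II genes were lower in 8 of 10 cases, with H2-Aa at 5.90 against 8.12 and H2-Ab1 at 7.62 against 9.30. The part of B cells in the values of genes they share with T cells, such as Btla, Irf8 and Gimap, was not tested.

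Myeloid and mast cell genes gave 4 of 13 lower (30.8%) and 2 higher (15.4%), against 24.4% and 5.98% of all genes above the floor, and their median of -0.245 lay near -0.30. Itgax (CD11c), which activated IEL also carry, was at 2.10 against 5.24, and the mucosal mast cell proteases Mcpt1 and Mcpt2 were lower by 1.92 and 2.28. Cpa3, a further mast cell gene, went the other way, at 4.81 against 3.96, and was at 5.53 on the recolonized array. Adgre1 (F4/80) and Fcgr3 were higher by 1.06 and 1.23, and Lyz2 was at 6.40 against 6.65.

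Stromal genes were higher in colon, with 10 of 19 higher by 2-fold or more, 0 lower and a median of 1.33. Col1a1 was at 7.59 against 4.18, Col3a1 at 6.79 against 3.90, the matrix protein Fn1 at 5.43 against 2.78 and the smooth muscle actin Acta2 at 6.15 against 4.11, while the endothelial gene Pecam1 was at 5.39 on both arrays. At or above the 75th percentile lay 11 of 20 stromal markers on the colon array, 6 on the small intestinal array and 12 on the recolonized array. These move in the same direction as the naive T cell genes, and their part in that difference was not tested. Among red cell genes 6 of 9 were higher and 0 lower. Slc4a1, the anion exchanger of red cells, was at 7.93 on the colon array and 2.32 to 2.64 on the other 3, and Bpgm, which makes a haemoglobin regulator, at 7.64 against 3.86 in small intestine and 3.08 on the recolonized array. Without the colon IEL array, that is with the recolonized array in its place, no red cell gene was higher and the list median was -0.32.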

How the data were processed

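Total RNA of 4 pooled samples was hybridised to 1 whole-transcript Affymetrix array each. The deposited values are log2 levels per probe set. The submitters' processing notes name Affymetrix Expression Console; for its version, summarization and normalization, nothing is stated (not given in the sources used here), so differences were taken between arrays for the same gene. Of 41345 probe sets, 23521 list 1 gene symbol, 1814 list several and name no gene here, and 16010 are unnamed here. Gene IDs of 23328 matched RefSeq (GRCm38.p6), with 0 symbols to update.

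Computed here were log2 differences, counts at a 2-fold threshold above a floor at the 50th percentile of the brighter array, and list medians (Python 3.11.15, pandas 2.3.3, statsmodels 0.14.6). The number of arrays limits the precision. The 37 lists held 645 genes, 580 of them measured. The lists and members were chosen with earlier results of these data known. Genes are named when they are fixed markers, or among the 4 largest (3 for lists of other cell types) or the nearest to 0 in a list. A further rule takes the 12 largest per direction that are dim on the LP array, after the exclusions given above. Others were chosen after their values were seen.

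Alternatives were no floor or one at the 25th or 75th percentile, thresholds of 1.5-fold and 3-fold, averaging probe sets of the same gene, quantile normalization, centring on genes above the floor or on the CD3 chains, a lowess correction (span 0.3), the recolonized array, and genes under the median of the LP array. Counts over genes below its 75th percentile were chosen after seeing the data. The steps were tested on simulated data. Planted differences apart, the simulated arrays shared a common mean per gene with noise of SD 0.3. They lacked the shift and unequal spread of the real arrays, so they do not test how those affect the counts. Promoter sequences come from RefSeq.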

Additional observations from a re-analysis of the deposited data

Results flagged for a closer look

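Against the same small intestinal array, 3 listed genes were past 2-fold in one direction for colon IEL and in the other for recolonized colon IEL. With 1 array per group this contrast was not tested. Ly6c2, a surface protein of effector and memory T cells, differed by -1.84 in colon and by 1.96 after recolonization. Ang4, an antimicrobial ribonuclease of Paneth and goblet cells, differed by -1.39 and 1.03. Slc25a37, the mitochondrial iron importer, differed by 4.47 and -1.38.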

How the results depend on the processing

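No paired analysis was possible because each group is 1 array. With no replicates, a list median is called moved when it shifted by the SD over ribosomal protein genes (0.56) or more. Genes higher on the colon array numbered 751, and 1650 under quantile normalization, 1603 after centring on genes above the floor, 1680 on the CD3 chains, 1143 after lowess, 486 with the floor at the 75th percentile, 2024 at 1.5-fold, 163 at 3-fold and 347 among genes under the LP array's median. Lower genes numbered 3059, and 1674 (quantile), 1621 (lowess), 4785 (1.5-fold), 1569 (3-fold), 193 (genes under that median) and 641 (genes below the 75th percentile of the LP array, a set chosen after seeing the data). Higher genes made up 19.7% of those called, but 49.6% (quantile), 42.1% (centred), 41.4% (lowess) and 44.1% (CD3 chains). The thresholds and the subset change the counts by their construction, and the cause of the other shifts was not tested. Of the 37 list medians, 22 moved under quantile normalization and 1 more changed sign, and 18 moved after lowess. Only the main lists are given here. B cell genes moved to -1.41 (quantile) and -1.34 (lowess), and cytotoxic granule genes, in that order, to -0.60 and -0.81. Gimap genes moved to -0.30 and -0.41, and naive genes to 2.10 and 1.90. Inhibitory receptors moved to -0.59 and -0.65 (-0.64 with the recolonized array). The co-receptor median moved to 1.11 (quantile) and the enterocyte median to -5.00 (lowess). Among lists whose median was at least that SD from 0, sign changed for colonocyte genes (0.023 quantile, 0.59 recolonized array), butyrophilin-like genes (0.11 with no floor) and, with the recolonized array, goblet (0.16), Ly6 (0.35), natural killer receptor (0.068) and red cell genes (-0.32). Medians nearer to 0 changed sign too, under quantile normalization to 0.15 for natural IEL genes, 0.17 for survival genes, 0.65 for cytokine receptors and 0.79 for proximal signalling, and others under 1 or more settings. Of the named genes past 2-fold, Gpr18 (0.10), Vav1 (0.031), Xbp1 (0.13), Gimap4 (0.13) and Cd96 (0.042) changed sign under quantile normalization, and Bcl2l1 (-0.38), Fech (-0.56), Isg15 (-0.72), Isg20 (-0.23), Ly6c2 (1.96), Slc4a1 (-0.32), Tdpoz2 (-0.17), Xist (0.25), Ang4 (1.03), Bpgm (-0.78), Gata4 (0.015), Itgb7 (0.033), Muc2 (0.29) and Slc25a37 (-1.38) with the recolonized array. Under the mean of probe sets, all 37 list medians and both counts stayed within these limits.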

Other observations

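Hormone genes of enteroendocrine cells were mostly lower in colon IEL than in small intestinal IEL. Of 14 enteroendocrine and tuft cell genes passing the floor, 8 were lower by 2-fold or more and 1 higher. Sst (somatostatin) was at 3.05 against 6.04, Nts (neurotensin) at 1.97 against 4.90, Cck (cholecystokinin) at 2.10 against 4.53 and Ghrl (ghrelin) at 1.99 against 3.91. Pyy, a hormone of the distal gut, was at 2.77 against 2.91, and Gcg and Insl5 were below the floor. The list median of -1.49 was -0.25 under quantile normalization. Crypt genes differed little: 8 of 9 were within 2-fold, Axin2, a target of Wnt signalling, was at 4.37 against 3.69, and Smoc2 was at 3.20 against 2.03. Goblet cell genes gave 7 of 12 lower, with Fcgbp at 4.39 against 8.72 and Muc2 at 7.00 against 9.16 (9.45 on the recolonized array), while Tff3, Agr2 and Clca1 were within 2-fold. Of the 14 measured, 13 were bright on the epithelium-rich array, where 44.3% of all genes above the floor were lower. With the recolonized array 3 of 13 goblet genes were higher and 2 lower, and the median was 0.16.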
